A study of Mus musculus with 12 samples.

Results

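Evc, Evc2, Mpdz, Myo1e, Robo1, Clip4, Thsd4, Arhgef16, Dsg2 and L1cam are 10 mouse genes for cell adhesion, cell shape and the primary cilium. They were picked from 37187 genes by their low values in double knockout libraries of bone marrow stem and progenitor cells, so that their fall in those libraries is how they were chosen and not a finding. All 10 reached 10 units of signal in 3 or more libraries and so were among the 14045 genes tested. The cells were lineage-negative, CD117+ and Sca-1+ (LSK), a gate that takes in blood stem cells and early multipotent progenitors of mouse bone marrow. Messenger RNA was sequenced in 12 libraries, 3 each from wild-type mice (WT), Tet2 KO mice, Traf6 KO mice and mice lacking both genes (Tet2;TRaf6 dKO, written dKO here). The product of Tet2 oxidises methylated cytosine in DNA, and that of Traf6 is a ubiquitin ligase of innate immune signalling. The labels give no age, no treatment, and neither the way the alleles were made nor the cells in which they were deleted.

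The genes belong to several cell structures. Evc and Evc2 encode a pair of membrane proteins that sit together at the base of the primary cilium and pass the Hedgehog signal on below Smoothened. Mpdz is a scaffold with many PDZ domains at tight junctions, and Dsg2 is a cadherin of desmosomes, the junctions that tie epithelial and heart muscle cells to intermediate filaments. Robo1 is a receptor for SLIT guidance cues, and L1cam is an adhesion molecule of the immunoglobulin superfamily best known from axons. Myo1e is a class I myosin that links membranes to actin, Clip4 belongs to the CLIP family of microtubule-binding proteins, and Arhgef16 is a guanine nucleotide exchange factor for small GTPases. Thsd4 encodes an ADAMTS-like protein that binds fibrillin-1 in extracellular matrix microfibrils. Most of these structures are studied in epithelia, nerve, muscle or connective tissue rather than in blood stem cells.

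Evc and Evc2 are neighbours that point away from each other, which is why the sequences before their starts are shown. In GENCODE M21 on GRCm38, Evc lies on the minus strand at chr5:37289098-37336894 and Evc2 on the plus strand at chr5:37338499-37425055, with 1604 bases between their annotated starts. The 250 bases before each RefSeq start (GRCm38.p6) are given 5′ to 3′ on the strand of the gene, chr5:37336882-37337131 on the minus strand for Evc and chr5:37338228-37338477 on the plus strand for Evc2. Capitals mark a 13-base run that both hold, in opposite orientations on their own strands.
Evc: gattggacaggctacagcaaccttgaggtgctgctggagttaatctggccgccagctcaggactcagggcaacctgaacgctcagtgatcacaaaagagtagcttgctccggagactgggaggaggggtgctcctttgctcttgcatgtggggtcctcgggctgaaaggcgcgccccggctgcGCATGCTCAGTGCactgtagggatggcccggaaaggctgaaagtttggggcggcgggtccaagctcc
Evc2: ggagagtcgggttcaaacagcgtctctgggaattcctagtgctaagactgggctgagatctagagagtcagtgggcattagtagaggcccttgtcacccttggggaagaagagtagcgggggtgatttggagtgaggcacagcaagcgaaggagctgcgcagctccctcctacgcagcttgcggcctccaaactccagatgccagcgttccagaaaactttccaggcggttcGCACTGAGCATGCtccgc
The run ends 54 bases before the start of Evc and 5 bases before that of Evc2, and it occurred, on either strand, in 10 of 32851 RefSeq windows (0.0304%) that reach from 250 bases before to 50 bases after a start. It was found by comparing these windows and is a match of letters only. Each of the printed sequences held 11 CG pairs, and the G and C share was 60.8% for Evc and 57.2% for Evc2. RefSeq windows of 8 of the 10 genes were counted, 12 windows in all. Mpdz and Dsg2 were left out of the counts that follow for the 10 genes. A GC box (GGGCGG, both strands) was found in 6 of these 12 windows, of Evc, Evc2, Arhgef16, L1cam and Thsd4, and in 35.7% of all windows. The E-box CACGTG was found for Arhgef16 and in 7.15% of all windows. The TATA box (TATAAA) was in 0 of the 12 windows and in 13.6% of all windows.

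The libraries held between 22169673 and 53921402 reads, and the values are reads scaled by a size factor per library, called signal here, in which 1 read is worth 0.518 to 1.79 units. The dKO libraries held 75091539 reads together and the WT libraries 89168780, so that depth was of the same order. The summed signal of 10 LSK markers was high in every library, at 137034 to 152252 in WT and 90441 to 109721 in dKO. In the limma test described below, 6 of these 10 markers were called in dKO against WT. There 26.5% of all genes tested were called lower and 21.9% higher. Kit itself had a mean of 46708 in WT and 6713 in dKO. Cd34, also an abundant LSK marker, had a mean of 43412 in WT and 52233 in dKO. Tet2 ranged from 525 to 783 in WT and from 197 to 326 in dKO, and Traf6 from 1935 to 3006 in WT and from 799 to 1313 in dKO. In the library labelled Tet2 KO 1 Tet2 was 668, and in that labelled Traf6 KO 1 Traf6 was 2474, both inside the WT range. Tet2 was 403 and 486 in Tet2 KO 2 and 3, but also 339 and 427 in Traf6 KO 2 and 3. Tet2 totals thus did not set the Tet2 KO libraries apart from Traf6 KO. Traf6 was 854 and 568 in Traf6 KO 2 and 3, and 1432 and 1776 in Tet2 KO 2 and 3, all below the WT range. These totals run over the whole gene, exons outside a deletion included, and the labels leave the deleted exons unnamed. Xist, transcribed from the inactive X chromosome of females, was between 990 and 3826 in the single knockouts and at most 17.0 in WT and dKO. Every comparison of a single knockout with WT or with dKO thus also compared sexes, as far as Xist shows them. So did each estimate of dKO beyond the sum of the single knockouts, and the contributions cannot be told apart. The Y-linked gene Eif2s3y was 1524 in Traf6 KO 1, at most 55.4 in the other 5 single knockout libraries and at least 2812 in WT and dKO. Traf6 KO 1 thus had signal of both Xist and Eif2s3y and lies on neither side of this split, and the reason was not tested.

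In WT, the 10 genes were expressed at low to moderate levels, with mean signals from 29.9 for L1cam to 463 for Mpdz, against a median WT mean of 788 over the genes tested. Per kilobase of the longest transcript, the mean WT signal was 83.1 for Myo1e, 62.9 for Evc2, 61.6 for Mpdz, 52.3 for Arhgef16, 34.0 for Clip4, 32.9 for Evc, 13.6 for Thsd4, 7.85 for Robo1, 5.83 for L1cam and 5.47 for Dsg2. Neighbours in this order overlapped between libraries in every case but 1, Arhgef16 above Clip4, where the lowest Arhgef16 library had 45.7 per kilobase and the highest Clip4 library 37.0. Over the 10 genes together, 5934 reads were counted in the WT libraries, 2978 in Traf6 KO, 1816 in Tet2 KO and 96 in dKO. Of the 96, 71 came from dKO 1, where 1 of the genes was at 0, while 6 were at 0 in dKO 2 and 7 in dKO 3. In bulk RNA, fewer cells that express a gene and less RNA per cell cannot be told apart.

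**Figure D1:**
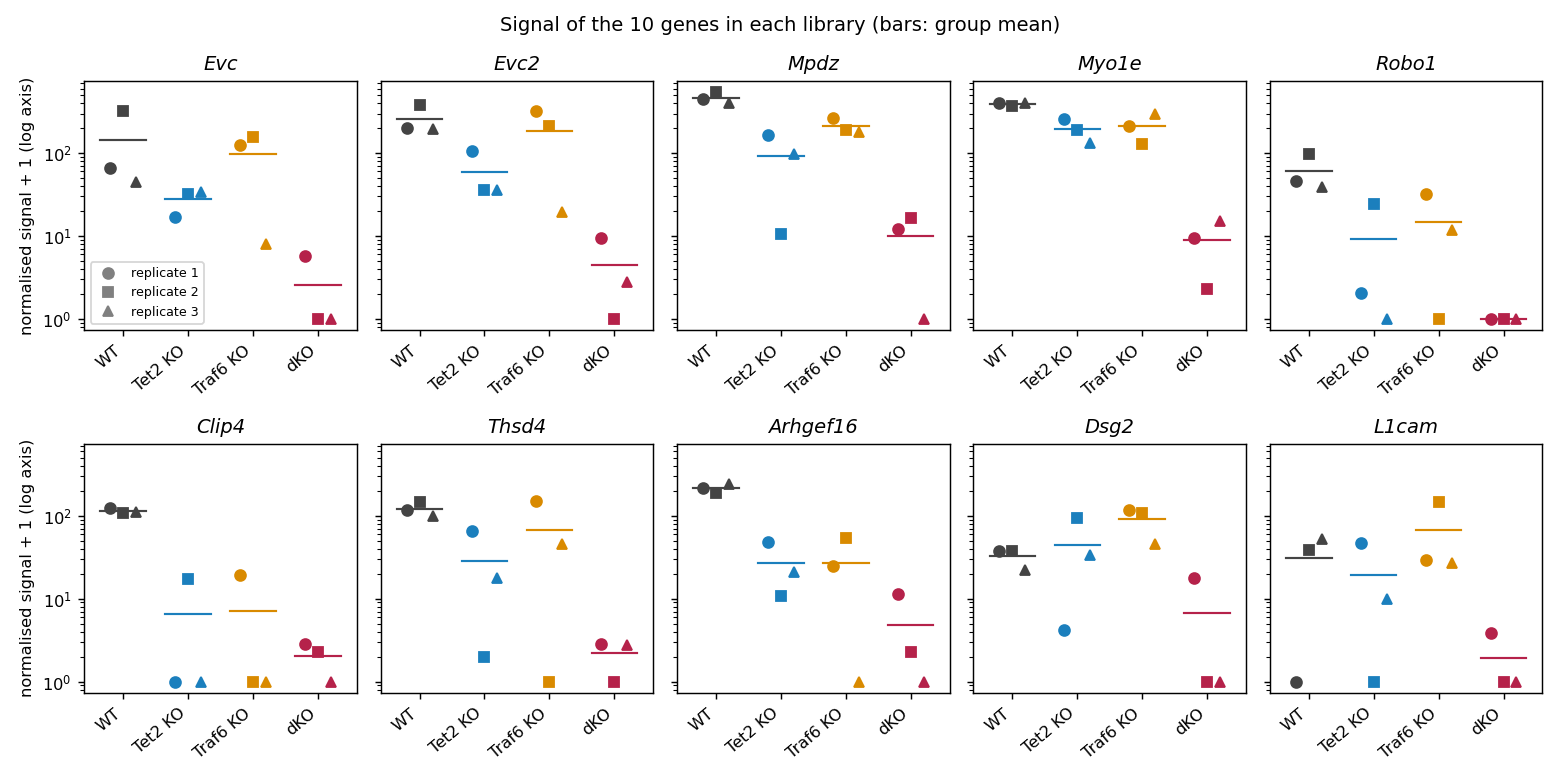
Signal of the 10 genes in the 12 libraries, 1 panel per gene, 1 point per library on a log axis of signal + 1, and a bar at the group mean. The dKO points lie at or below 16.9 units in every panel, and all single knockout points of Clip4, Arhgef16, Mpdz, Myo1e and Robo1 lie below the WT points.

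The EvC pair was highest in the same WT library and had its lowest Traf6 KO value in the same library. Evc, the smaller partner of the complex, had a signal of 65.3, 318 and 44.2 in WT 1 to 3, of 15.8, 31.0 and 33.1 in Tet2 KO, of 126, 155 and 7.10 in Traf6 KO and, in dKO, 4.69, 0 and 0. Evc2 had 201, 378 and 193 in WT, 105, 34.9 and 35.2 in Tet2 KO, 323, 212 and 18.6 in Traf6 KO and, in dKO, 8.45, 0 and 1.79. These libraries were WT 2 and Traf6 KO 3, and every Tet2 KO library lay below every WT library for both. The dKO values rest on 5 reads of Evc and 10 of Evc2, against 416 and 815 in WT. The mean of Evc went from 142 ± 152 in WT over 96.0 ± 78.4 in Traf6 KO and 26.6 ± 9.43 in Tet2 KO to 1.56 ± 2.71 in dKO, and Evc2 kept the same order with 257 ± 105, 185 ± 154, 58.5 ± 40.7 and 3.41 ± 4.45 (SD, n = 3 in each group, here and below). The log2 values of the pair had a Pearson r of 0.951 over 12 libraries, the highest of the 45 pairs among the 10 genes. Over the 9 libraries other than dKO it was 0.84, below Robo1 with Clip4 at 0.891. Both genes of the pair were chosen for low dKO values, which enter the r over 12 libraries. These libraries share genotype groups and depth, and r is given as a description.

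The junction genes Mpdz and Dsg2 differed in their single knockout values. Mpdz had 453, 539 and 398 in WT, 165, 9.68 and 95.8 in Tet2 KO, 262, 188 and 177 in Traf6 KO and, in dKO, 11.3, 15.7 and 0. Its Traf6 KO libraries lay between the others: all of them were below WT, above Tet2 KO and above dKO. The group means of Mpdz were 463 ± 71.1 in WT, 209 ± 46.3 in Traf6 KO, 90.0 ± 77.6 in Tet2 KO and 8.97 ± 8.07 in dKO. Dsg2 had only 36.9, 36.6 and 21.2 in WT, 3.16, 93.9 and 32.6 in Tet2 KO, 116, 108 and 45.3 in Traf6 KO and, in dKO, 16.9, 0 and 0. Every Traf6 KO library was above every WT library for Dsg2, with a mean of 89.9 ± 38.9 against 31.5 ± 8.99, and all 18 dKO reads came from dKO 1.

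The receptor genes were the least abundant per kilobase together with Dsg2. Robo1 had 44.7, 96.0 and 37.5 in WT, 1.05, 23.2 and 0 in Tet2 KO, 30.9, 0 and 10.7 in Traf6 KO and no read in any dKO library. Against a floor of 3 reads in each dKO library, Robo1 was at least 14.7-fold lower in dKO than in WT, where its mean was 59.4 ± 31.9. L1cam, which lies on the X chromosome, had 0, 37.7 and 51.9 in WT, 45.4, 0 and 8.80 in Tet2 KO, 28.2, 147 and 25.7 in Traf6 KO and, in dKO, 2.82, 0 and 0. It was at 0 in a WT library as well, so that its WT and dKO groups overlapped, the only such case among the 10 genes.

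The cytoskeletal genes had the tightest WT values. Myo1e had 396, 372 and 403 in WT, 255, 191 and 133 in Tet2 KO, 208, 129 and 297 in Traf6 KO and, in dKO, 8.45, 1.30 and 14.3. The single knockout means of Myo1e, 193 ± 61.1 in Tet2 KO and 211 ± 84.3 in Traf6 KO, were 2.02-fold and 1.85-fold below the WT mean of 390 ± 16.0, and the dKO mean of 8.02 ± 6.51 was 48.7-fold below it. Clip4 had 124, 109 and 110 in WT, 0, 16.5 and 0 in Tet2 KO, 18.2, 0 and 0 in Traf6 KO and, in dKO, 1.88, 1.30 and 0. Unlike Myo1e, Clip4 was as near to 0 in most single knockout libraries as in dKO, with 384 reads in WT, 20 in Traf6 KO, 17 in Tet2 KO and 3 in dKO. Arhgef16 had 218, 189 and 240 in WT, 47.5, 9.68 and 20.2 in Tet2 KO, 23.6, 53.4 and 0 in Traf6 KO and, in dKO, 10.3, 1.30 and 0. Its means of 25.8 ± 19.5 in Tet2 KO and 25.7 ± 26.7 in Traf6 KO were nearly equal, 8.36-fold and 8.40-fold below the WT mean of 216 ± 26.0.

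The matrix gene Thsd4 had 115, 144 and 99.1 in WT, 65.4, 0.968 and 16.6 in Tet2 KO, 152, 0 and 45.3 in Traf6 KO and, in dKO, 1.88, 0 and 1.79. Traf6 KO 1 held the highest Thsd4 value of all 12 libraries and Traf6 KO 2 no read. Thsd4 has the longest transcript of the 10 genes, 8796 nucleotides, and its dKO values rest on 3 reads.

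None of the 10 genes passed the test in a single knockout. The test was limma on log2(signal + 1) with Benjamini-Hochberg adjustment over all 14045 genes and a threshold of 0.05, and log2 changes are on this scale, where the added 1 shrinks the changes of low genes. In Tet2 KO against WT, 0 of 10 passed, where 0.306% of all genes tested passed as lower and 0.107% as higher, and edgeR and DESeq2 on the recovered reads also called 0. All 10 estimates were negative with a median of −2.65, against 0.02 over all genes. At an unadjusted p under 0.05 the count was 5 of 10, against 8.44% of all genes, and in 8 of 10 every Tet2 KO library was below every WT library, against 11.1% of all genes. The WT libraries were also those against which the genes had been picked for low dKO values, so neither the direction of these estimates nor the counts are independent of that choice. Clip4 had the largest estimate, −5.47 ± 1.34 (SE; limma adjusted p = 0.12, from 0.0242 to 0.475 over the alternatives), followed by Robo1 at −3.91 ± 1.36 (0.326), Arhgef16 at −3.28 ± 1.29 (0.438), Thsd4 at −3.17 ± 1.58 (0.652) and Mpdz at −3.05 ± 1.04 (0.318). Without Tet2 KO 1, the Tet2 KO library with Tet2 inside the WT range, again 0 genes passed, and the median was −3.13.

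In Traf6 KO against WT, limma, edgeR and DESeq2 called 0 of the 10 genes, where limma called 0.192% of all genes lower and 0.0783% higher. The estimates were negative for 8 genes, with a median of −1.15 against −0.03 over all genes, and positive for Dsg2 (1.41 ± 1.21, limma adjusted p = 0.824) and L1cam (1.94 ± 1.60, limma adjusted p = 0.814). Unadjusted p was under 0.05 for 3 genes, against 7.8% of all genes. The groups did not overlap for 5 genes that were lower (Mpdz, Myo1e, Robo1, Clip4 and Arhgef16), against 11% of all genes, and for Dsg2 as higher, against 9.68%. As in Tet2 KO, the WT libraries here are those of the choice of genes, so neither these counts nor the directions are independent of it. Clip4 at −5.42 ± 1.34 (limma adjusted p = 0.175, from 0.0321 to 0.673 over the alternatives) and Arhgef16 at −4.29 ± 1.29 (limma adjusted p = 0.341) had the largest estimates of the 10. Leaving out Traf6 KO 1 gave 0 genes passed and a median of −1.70.

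Tet2 KO against Traf6 KO is the comparison that uses neither WT nor dKO libraries. Limma, edgeR and DESeq2 called 0 of the 10 genes, where limma called 0.0783% of all genes lower and 0.0783% higher, and 0 had an unadjusted p under 0.05, against 8.59%. The estimates were negative for 9 genes with a median of −1.0, against 0.01 over all genes. Mpdz was the 1 gene whose groups did not overlap, lower in Tet2 KO with −1.90 ± 1.04 (limma adjusted p = 0.669), where 7.35% of all genes were lower without overlap. The estimates for Clip4 (−0.05 ± 1.34) and Myo1e (−0.10 ± 0.62) were close to 0. A change that misses the threshold with 3 libraries a group and standard errors of 0.62 to 1.60 is not shown to be absent.

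The dKO values are given as a description, since they chose the genes. In dKO against WT the log2 changes were −6.37 for Evc2, −6.29 for Mpdz, −6.18 for Arhgef16, −5.93 for Clip4, −5.89 for Thsd4, −5.82 for Myo1e, −5.79 for Robo1, −5.79 for Evc, −3.59 for Dsg2 and −3.02 for L1cam. Limma called 9 of 10 lower, all but L1cam, where 26.5% of all genes were called lower and 21.9% higher, and the groups did not overlap for the same 9, against 30.5% of all genes. Dsg2 was called in 14 of the 23 alternatives tried. The median was −5.86, against −0.09 over all genes. Among the genes tested, 18 had a change at or below −5.5, and 8 of the 10 were among them, while Dsg2 and L1cam stood at ranks 204 and 409 from the lowest. Against Tet2 KO, 4 of 10 were called lower (Evc, Evc2, Mpdz and Myo1e) with 19.9% of all genes, 3 groups did not overlap with 24.2% of all genes, and the median was −3.04. The counts against Tet2 KO moved with single libraries and with the fit: 2789 genes were called lower in all, but 661, with 2 of the 10 (Dsg2 and Myo1e), without Tet2 KO 1, 1733, with 3 of the 10, without dKO 2, and 8, with 0 of the 10, with only the compared groups in the fit. Without Tet2 KO 3 or dKO 3, 2 of the 10 were called. Against Traf6 KO, 6 were called lower (the same 4 with Dsg2 and L1cam) with 20.7% of all genes, 6 did not overlap with 21.8%, and the median was −4.89. Here 2910 genes were called lower in all, 1637 without Traf6 KO 3, 1766 without Traf6 KO 1, and 892, with 4 of the 10 (Evc2, L1cam, Mpdz and Myo1e), with only the compared groups. The single knockouts differed from dKO in Xist as well as in genotype, for the X-linked L1cam too, and the contributions cannot be told apart. The 3 comparisons share the dKO libraries.

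The step from the single knockouts to dKO differed in size between the genes, again as a description. For Clip4 the change from single knockout to dKO was −0.47 in the Tet2 KO comparison and −0.51 in the Traf6 KO comparison, for Arhgef16 −2.91 and −1.89, and for Robo1 −1.88 and −2.85. For Myo1e it was −4.76 and −4.86, and for Evc2 −4.12 and −5.22. The estimate of the dKO value beyond the sum of the single knockout changes was −3.80 ± 0.87 for Myo1e, −4.59 ± 1.71 for Dsg2 and 4.96 ± 1.89 for Clip4, and between −4.24 and 1.38 for the other 7 genes, and these estimates carry the same difference in Xist. Clip4 was at 0 in 4 of the 6 single knockout libraries, below which the signal cannot go. Robo1 was at 0 in Tet2 KO 3 and Traf6 KO 2, and Arhgef16 in Traf6 KO 3, so the same floor limits their steps.

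Transcript length moved with the dKO values over all genes. The median change in dKO against WT was 1.55 for 963 genes whose longest transcript did not exceed 1000 nucleotides and 1.05 for 2378 genes over 1000 and up to 2000. It was −0.03 for 5534 genes up to 4000, −1.09 for 3024 genes up to 6000 and −1.5 for 1784 genes over 6000. The share called lower rose over these classes from 2.91% and 1.98% to 17.3%, 50.4% and 61.0%. All 10 genes have long transcripts, from 3357 nucleotides for Clip4 to 8796 for Thsd4 with a median of 4912.5, and 9 of 10 exceeded 4000, against a median of 3202 and a share of 35.1% over the genes tested. All 3 dKO libraries had the trend, with genes over 4000 nucleotides at a median of −0.81, −1.42 and −1.41 below the WT mean in dKO 1, 2 and 3, and at −0.43 to −0.03 in single knockout libraries. The dKO library with the weakest trend, dKO 1, is also the one with 71 of the 96 reads of the 10 genes. It was the deepest of the 3 as well, with 30555015 reads against 22169673 in dKO 2 and 22366851 in dKO 3. Whether any of these are linked was not tested.

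Within their length classes the 10 genes lay far below the median. They had been chosen by low dKO values, so these distances and the calls below are a description and no test. The distance was 5.90 for Clip4, 5.28 for Evc2, 5.09 for Arhgef16, 4.79 for Mpdz, 4.73 for Myo1e, 4.69 for Evc, 4.40 for Thsd4 and 4.30 for Robo1, and it was smaller for Dsg2 (2.50) and L1cam (1.93). Among 340 genes over 4000 and up to 6000 nucleotides with a mean signal of 50 to 200, the class of Evc, Evc2 and Arhgef16, the median was −1.22, the 10th percentile −3.32 and the lowest value −6.37, which is Evc2. Taking a loess trend on length and GC content off each library left changes of −5.83 for Clip4, −5.55 for Evc2, −5.34 for Arhgef16, −5.02 for Myo1e, −4.95 for Mpdz, −4.86 for Evc, −4.37 for Robo1, −4.12 for Thsd4, −2.65 for Dsg2 and −1.98 for L1cam. With the trend taken off, 8 of 10 were called lower in dKO against WT (18.2% of all genes), 2 of 10 against Tet2 KO, Evc2 and Myo1e (10.2%), and 5 of 10 against Traf6 KO (12.2%). The median in dKO against WT then was −4.90, against −0.25 over all genes. The removal takes off what follows length and GC content on average, and what else moves with length in single genes was not tested.

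**Figure D2:**
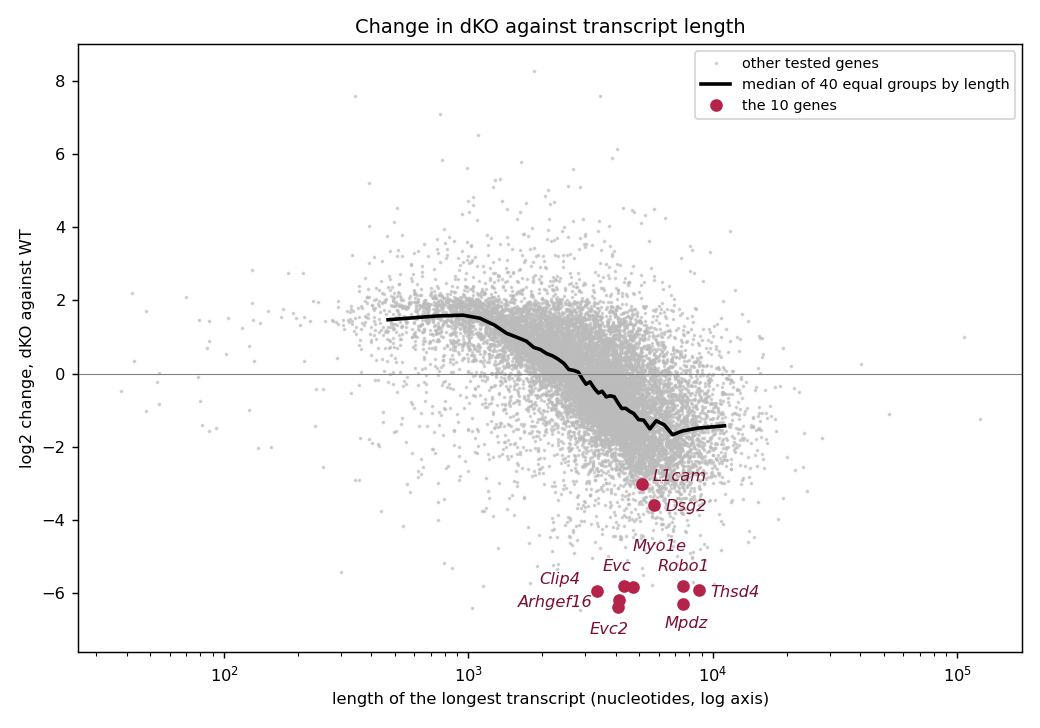
Log2 change in dKO against WT of each tested gene against the length of its longest transcript on a log axis, with the median of 40 groups of equal size as a line and the 10 genes in red. The line falls from above 1 for short transcripts to near −1.5 for long ones, and the 10 genes lie 1.93 to 5.90 below the medians of their length classes.

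**Figure D3:**
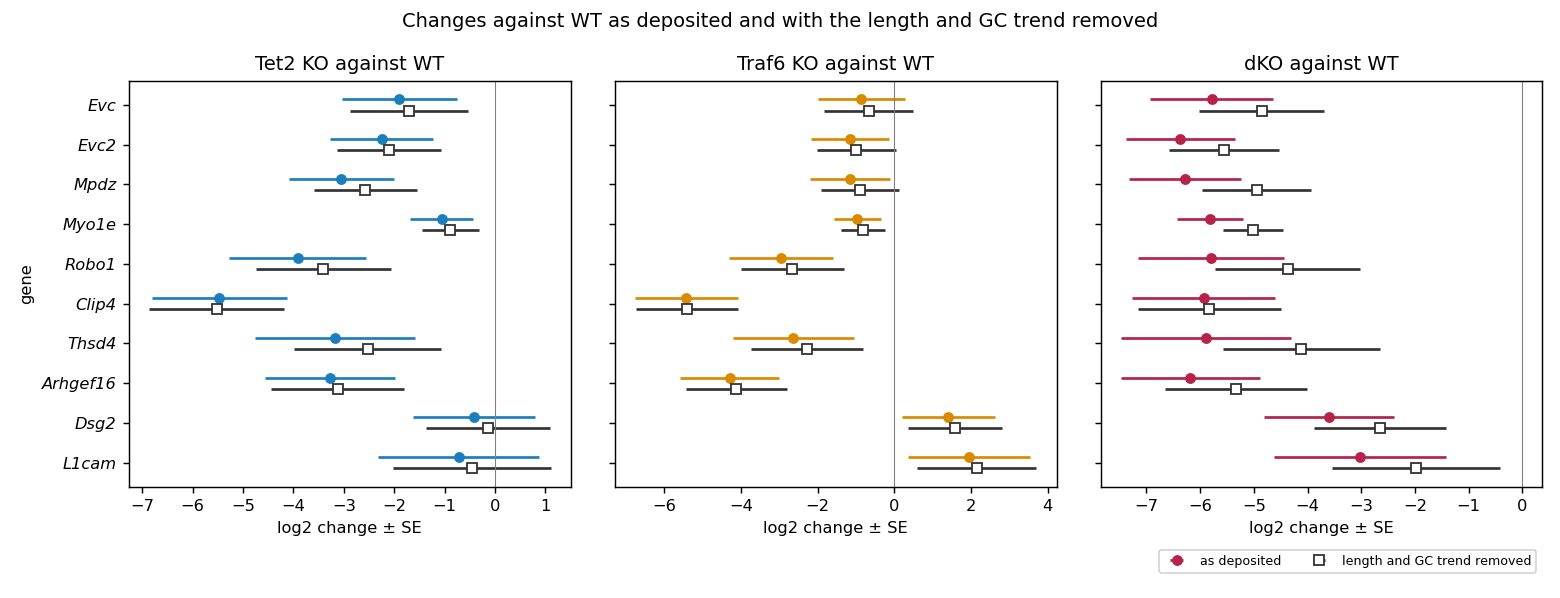
Log2 changes ± SE of the 10 genes against WT in Tet2 KO, Traf6 KO and dKO (3 libraries a group), as deposited (filled circles) and with the trend on length and GC content removed (open squares). The removal moves the dKO estimates toward 0, by 0.10 for Clip4 at the least and by 1.77 for Thsd4 at the most.

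Related genes of the same structures were read from 10 lists. These were drawn up with earlier results of these data known and held 173 tested genes besides the 10. In dKO against WT limma called 83 of the 173 lower (48.0%, against 26.5% of all genes) and 15 higher, with a median of −1.15. Their transcripts were long too, with a median of 4492 nucleotides and 61.8% above 4000, and after removal of the trend 48 were lower (27.7%, against 18.2% of all genes) and 9 higher, with a median of −0.54 against −0.25 over all genes. Limma called 0 of the 173 in Tet2 KO against WT, in Traf6 KO against WT and in Tet2 KO against Traf6 KO, where 29, 15 and 22 had an unadjusted p under 0.05 (16.8%, 8.67% and 12.7%, against 8.44%, 7.8% and 8.59% of all genes). On the same reads edgeR called 0 in each, and DESeq2 7, 0 and 5.

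Of the other EvC and Hedgehog genes, 7 of 10 fell and 1 rose in dKO against WT, with a median of −2.09. The Hedgehog receptor gene Ptch1 fell by 2.61 ± 0.44 on the log2 scale (limma adjusted p = 0.000831), from 553 ± 144 in WT to 97.0 ± 57.4, and the ciliary receptor gene Gpr161 fell by 2.63 ± 0.96 (limma adjusted p = 0.0371). Gpr161 had means of 94.3 ± 25.6 in WT, 109 ± 38.2 in Traf6 KO, 21.5 ± 21.8 in Tet2 KO and 25.1 ± 24.6 in dKO, with −0.12 in dKO against Tet2 KO. The gene that rose was Efcab7, whose protein helps to anchor the EvC pair (0.87 ± 0.33, limma adjusted p = 0.0444), with 353 ± 80.2 in WT and 641 ± 127 in dKO. With the length trend taken off, none of these 3 passed, with −0.85 for Ptch1, −1.32 for Gpr161 and −0.25 for Efcab7, and 3 genes of the list were lower, 0 higher and its median −1.05. In the wider cilium list, 16 of 49 genes fell, 8 rose and 25 did not pass, with a median of −0.29. Cc2d2a, of the transition zone at the ciliary base, fell by 3.20 ± 0.64 (limma adjusted p = 0.0021) and Bbs1, of the BBSome coat, fell by 2.67 ± 0.37 (limma adjusted p = 0.00036). B9d2 and Tmem216, also of the transition zone and with short transcripts of 1021 and 1848 nucleotides, rose by 1.88 ± 0.44 and 1.73 ± 0.40 (limma adjusted p = 0.00468 and 0.0047). After trend removal 12 of the cilium genes were lower and 4 higher, Tmem216 stood at 0.70 (limma adjusted p = 0.0471), and B9d2 at 0.24 (limma adjusted p = 0.252) no longer passed.

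Among tight junction and polarity genes besides Mpdz, 12 of 21 fell, 0 rose and 9 did not pass in dKO against WT, with a median of −1.70. Ocln, which encodes the tight junction protein occludin, fell by 4.22 ± 0.88 (limma adjusted p = 0.0026), with means of 168 ± 67.2 in WT, 124 ± 129 in Traf6 KO, 21.2 ± 0.91 in Tet2 KO and 11.9 ± 12.1 in dKO, and stood at −4.05 with the length trend taken off. Amotl2, of the angiomotin family, had means of 108 ± 47.2 in WT, 123 ± 83.2 in Traf6 KO, 8.32 ± 5.95 in Tet2 KO and 14.2 ± 18.5 in dKO. Its change in dKO against Tet2 KO was −0.18. Against WT it fell by 3.91 ± 1.16 in dKO (limma adjusted p = 0.0148), a call that was lost with the trend taken off (−2.94, limma adjusted p = 0.0802). In that fit 11 of the 21 were lower and 0 higher, with a median of −1.22. Of 13 desmosome and adherens junction genes other than Dsg2, 4 fell, 1 rose and 8 did not pass. Jup, the gene of plakoglobin, fell by 2.28 ± 0.44 (limma adjusted p = 0.00175), Ctnnd1, of a catenin that binds classical cadherins, fell by 2.27 ± 0.33 (limma adjusted p = 0.000425), and the plakophilin gene Pkp3 rose by 1.25 ± 0.29 (limma adjusted p = 0.00445), and 3 were lower and 1 higher after trend removal.

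In the list of ROBO, SLIT and L1 family genes 6 of the 15 besides Robo1 and L1cam fell and 0 rose in dKO against WT. They included Srgap2 and Srgap3, genes of GTPase-activating proteins that bind ROBO receptors, at −2.23 ± 0.34 and −1.49 ± 0.42 (limma adjusted p = 0.000513 and 0.0117). With the trend taken off, 1 of the 15 was lower, the median of the list went from −1.39 to −0.25, and Srgap3 was at 0.22 (limma adjusted p = 0.673). Among the class I myosins other than Myo1e, Myo1c fell by 2.78 ± 0.36 (limma adjusted p = 0.000326) and Myo1d fell by 2.63 ± 0.45 (limma adjusted p = 0.000907), and Myo1h rose by 1.07 ± 0.42 (limma adjusted p = 0.0492), with 4 of 6 lower and 1 higher, and 2 lower and 1 higher after trend removal. Of the 10 microtubule plus-end genes other than Clip4, 7 fell and 0 rose, among them Clasp1 at −2.33 ± 0.49 and Clasp2 at −2.56 ± 0.56 (limma adjusted p = 0.00268 and 0.00337). Trend removal left 3 of these 10 lower and 1 higher, with a median of −0.54 in place of −1.85, and Clasp1 at −0.54 (limma adjusted p = 0.282) lost its call.

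The exchange factor list held the related gene nearest to the 10 in size of change. Arhgef26, which encodes a close relative of ARHGEF16, fell by 5.77 ± 1.37 (limma adjusted p = 0.00501), with a mean signal of 89.6 ± 75.7 in WT, 30.5 ± 37.2 in Traf6 KO, 1.58 ± 2.30 in Tet2 KO and 0.435 ± 0.753 in dKO, and stood at −4.76 with the trend taken off. Arhgef11 fell by 4.04 ± 0.49 (limma adjusted p = 0.000302), and Arhgef25 rose by 1.19 ± 0.45 (limma adjusted p = 0.0425). Of the 22 genes other than Arhgef16, 15 fell, 2 rose and 5 did not pass, and the other gene that rose was Rhog, a small GTPase gene with a transcript of 1321 nucleotides (1.51 ± 0.37, limma adjusted p = 0.00578). With the trend taken off, 8 of the 22 were lower and 0 higher, the median went from −1.38 to −0.28, and neither Arhgef25 (0.97, limma adjusted p = 0.12) nor Rhog (0.21, limma adjusted p = 0.367) passed. Among the 8 microfibril genes other than Thsd4, 4 fell and 0 rose, including Fbn1, the gene of fibrillin-1 (−3.46 ± 1.13, limma adjusted p = 0.0231), and Ltbp4 (−3.05 ± 0.94, limma adjusted p = 0.018), and 0 of the 8 passed once the trend was taken off.

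Adhesion receptors that blood stem and progenitor cells are known for were mixed in dKO against WT, with 8 of 19 lower, 2 higher, 9 that did not pass and a median of −0.51. Itgb3, of integrin beta 3, fell by 2.83 ± 0.49 (limma adjusted p = 0.000948) and Jam3 fell by 2.60 ± 0.80 (limma adjusted p = 0.0172). Selplg, of the adhesion ligand PSGL-1, rose by 1.17 ± 0.20 (limma adjusted p = 0.00098). Of the 19, 5 were lower and 2 higher after trend removal. The longest transcript of Jam3 has 1942 nucleotides.

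**Figure D4:**
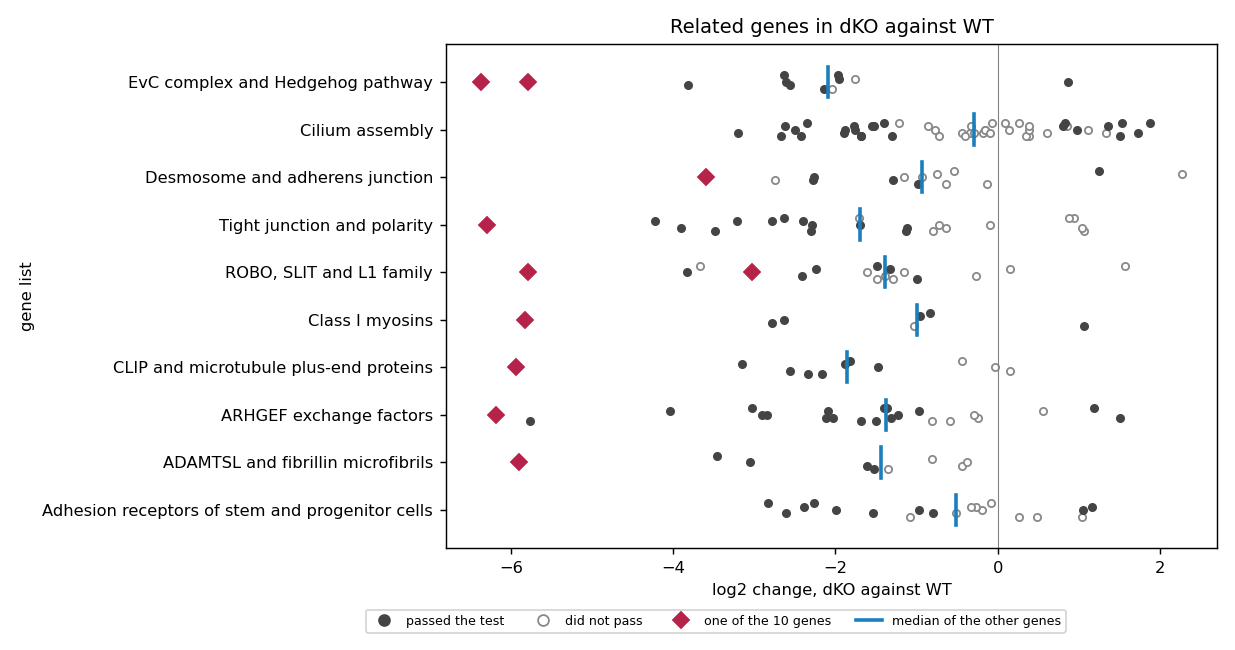
Log2 change in dKO against WT of the tested genes of the 10 lists, 1 point per gene, filled where the gene passed the test and open where it did not, with a blue bar at the median of the genes other than the 10, which are red diamonds. Besides Arhgef26 at −5.77, no list gene outside the 10 lies below Ocln at −4.22, while 8 of the red diamonds lie between −6.37 and −5.79.

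Markers of other cells that could have entered the sort moved in several directions beside these values, and their part in the results was not tested. The summed signal of 12 stromal markers ran from 2100 to 3061 in WT, from 2744 to 4193 in Traf6 KO, from 2071 to 4351 in Tet2 KO and from 692 to 1799 in dKO, most of it Pdgfrb. Col1a2, the next most abundant, had a mean of 55.8 in WT and 17.4 in dKO. The sum of 10 endothelial markers was 7585 to 9062 in WT and 7243 to 18689 in dKO, where Egfl7 had a mean of 9577 against 2689 in WT and Tie1 of 857 against 4815. The sum of 8 epithelial markers was 2202 to 2783 in WT and 3606 to 11141 in dKO, nearly all of it Krt18, while the keratin genes Krt5 and Krt14 of stratified epithelia were at 0 in all 12 libraries. Epcam, the next most abundant after Krt18, had similar means of 85.8 in WT and 96.2 in dKO. The sum of 11 markers of mature blood cells was 4711 to 6465 in WT and 9734 to 52086 in dKO, mainly Nkg7, and Cd3e was at 0 throughout. Itgam, the next most abundant after Nkg7, went the other way, with a mean of 1047 in WT and 553 in dKO.

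Over all 12 libraries the tested genes most like the mean standardised level of the 10 were Rab5b (Pearson r 0.974), Tor1aip2 (0.968), Klc2 (0.967), Armcx2 (0.966) and Fem1b (0.966). Rab5b, an endosomal GTPase gene, ran from 442 to 637 in WT, 300 to 463 in Traf6 KO, 223 to 335 in Tet2 KO and 102 to 167 in dKO. Over the 9 libraries other than dKO the most alike were Dync1h1 (0.968), Tenc1 (0.962), Dip2c (0.959), Raver2 (0.933) and Cux2 (0.929), and Dync1h1, the dynein heavy chain gene, was 2473 to 4003 in WT, 1694 to 2843 in Traf6 KO, 999 to 1411 in Tet2 KO and 480 to 1539 in dKO. Among the 10 themselves the 45 pairs had a median r of 0.61 over 12 libraries, from −0.04 for Clip4 with L1cam to 0.951 for Evc with Evc2, and of 0.34 over 9 libraries, from −0.42 for Thsd4 with Dsg2 to 0.891 for Robo1 with Clip4. The 12 libraries take in the dKO libraries by which the 10 genes were chosen, so a shared fall there is built into r. The 9 libraries still hold the WT libraries of that choice, and all these r are a description.

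The positions of the remaining 8 genes in GENCODE M21 on GRCm38 complete their description. Mpdz (chr4:81278500-81442815) and Arhgef16 (chr4:154278486-154301676) lie on the minus strand of chromosome 4, Thsd4 (chr9:59966931-60522046, minus) and Myo1e (chr9:70207350-70399766, plus) on chromosome 9, Robo1 at chr16:72308306-73046095 (plus), Clip4 at chr17:71768473-71864273 (plus), Dsg2 at chr18:20558074-20604521 (plus) and L1cam at chrX:73853778-73896105 (minus). All 10 are protein-coding, and as the library kit does not mark strand, reads of an antisense partner cannot be told apart from theirs. Their longest transcripts have 14 exons (Arhgef16 and Clip4) to 47 exons (Mpdz) and a G and C content of 47.5% to 57.1%, around the median of 49.7% over the genes tested.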

How the data were processed

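Messenger RNA of sorted LSK cells was measured in 12 libraries. Per the labels' protocols, RNA was amplified with a SMART-Seq v4 low-input kit, which starts from oligo-dT and does not mark strand, and sequenced on a HiSeq 4000. Builds mm10 and GRCm38 and the tools STAR, featureCounts, bcl2fastq and DESeq2 stand in the submitters' processing notes, while versions, annotation and strand setting are not given in the sources used here. The deposited values are a normalised signal, that is read totals of genes scaled by 1 factor for each library, since 100% of values were whole multiples (tolerance 1e-06) of the smallest non-zero value of their library. The floor of 3 reads covers counting error only.

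Tests were made in R 4.3.3. The main one was limma 3.58.1 on log2(value + 1), robust and with a mean trend of the variance, over 12 libraries in 4 groups, for genes that reached 10 in 3 or more libraries. Alternatives were a pseudocount of 5, no filter, a minimum of 50, equal totals, TMM, a replicate block, the compared groups alone, edgeR 4.0.16 (quasi-likelihood) and DESeq2 1.42.0 on recovered reads, a loess trend (span 0.5) on length and GC content removed, and each library left out in turn. Whether the 3 libraries of a group are separate animals is not in the labels, and p-values then reflect only library-to-library spread, possibly technical.

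The 10 genes and all lists were chosen with earlier results of these data known. Named related genes are, per list, up to 2 in each direction with the largest change past the threshold in dKO against WT and a higher group mean no lower than 50, any that passed in a comparison without dKO, the 2 most abundant markers per marker list, and the 5 genes most alike. Smo, Sufu and Iqce are named besides, as the Hedgehog list genes that were lower with the trend taken off. Lengths and positions came from GENCODE M21 (30491 of 37187 genes matched, 28387 by symbol and 2104 by a RefSeq synonym; 97.4% of tested genes had a length). A related gene that this rule names is not reported here.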

Additional observations from a re-analysis of the deposited data

How the results depend on the processing

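With a pseudocount of 5, 1 gene (Clip4) passed in Tet2 KO against WT (−3.87, limma adjusted p = 0.0256) and 1 (Clip4) in Traf6 KO against WT (−3.83, limma adjusted p = 0.0321). With only the compared groups in the fit, 3 (Arhgef16, Clip4 and Evc2) passed in Tet2 KO against WT. In the comparison of dKO with Tet2 KO, where 4 were called, 0 were called with only the compared groups, 7 by DESeq2, and 2 after the loess trend was removed, with or without the replicate block. With 1 library left out the counts ran from 2 to 6 there, with 2 each without Tet2 KO 1, Tet2 KO 3 or dKO 3, from 5 to 7 in dKO against Traf6 KO, from 8 to 9 in dKO against WT and were 0 in the other comparisons. The median change of genes over 4000 nucleotides in dKO against WT was −1.23, and −0.31 with the trend removed, with or without the block, and from −1.42 to −1.13 with 1 library left out.

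The replicate numbers did not pair the libraries: over 18 same-numbered pairs the correlation of deviations ran from −0.177 to 0.193 with a median of −0.002. As a replicate block they left 9, 4 and 6 genes called in dKO against WT, Tet2 KO and Traf6 KO and 0 elsewhere, with 3630 lower and 2944 higher genes in dKO against WT in place of 3716 and 3074.

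Some estimates changed sign, and the cause was not tested. Ranges are over the libraries left out in turn. In Tet2 KO against WT, Dsg2 was 0.47 by edgeR and 0.46 by DESeq2 and ran from −1.42 to 0.84 (without Tet2 KO 1), and L1cam ran from −2.56 to 0.75, above 0 without WT 2 (0.08), WT 3 (0.31) or Tet2 KO 2 (0.75). In Traf6 KO against WT, Evc ran from −1.62 to 0.51 and Evc2 from −1.93 to 0.10, above 0 without Traf6 KO 3. In Tet2 KO against Traf6 KO, Myo1e ran from −0.41 to 0.19 (0.14 without Tet2 KO 3, 0.19 without Traf6 KO 3), Robo1 from −2.39 to 0.11 (without Traf6 KO 1), Clip4 from −1.42 to 1.38 (0.64 without Tet2 KO 1 or 3, 1.38 without Traf6 KO 1), Thsd4 from −2.67 to 0.96 (0.83 without Tet2 KO 2, 0.96 without Traf6 KO 1, 0.09 without Traf6 KO 3) and Arhgef16 from −0.72 (without Traf6 KO 3) to 2.16. Clip4 ran from −1.15 to 0.91 (without Tet2 KO 2) in dKO against Tet2 KO and from −1.22 to 0.91 (without Traf6 KO 1) in dKO against Traf6 KO.

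Equal library totals shifted the median of all genes in dKO against WT by −0.25 and trend removal by −0.15, and dKO 3 had the largest normalised total, 39973892. At 0 to 24 reads per gene in dKO, over the 3 libraries together, dKO levels of the 10 genes are poorly resolved.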
